A study of Mus musculus with 6 samples.

Results

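Hba-x encodes ζ-globin, the embryonic α-like chain of haemoglobin, and lies in the mouse α-globin cluster between the enhancer R4 and the adult gene Hba-1 (Hba-a1 in the annotation). Its contacts were taken as all pairs of restriction fragments in which at least one fragment had its midpoint in a 9 kb window around the gene, chr11:32172001-32181000 in mm9. The rule used position only, and 5920 of 145873 distinct fragment pairs over 12 contact matrices met it.

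The contacts were measured by Tri-C, a chromosome conformation capture method in which a read holds a viewpoint and at least 2 further NlaIII fragments, called reporters, so that a counted pair of reporters met the viewpoint on the same allele. The viewpoints were the α-globin enhancer R2 and the promoter of Mpg, a DNA glycosylase gene upstream of the enhancers. Both groups were Ter-119+ erythroid cells, selected from the spleens of phenylhydrazine-treated female mice of the C57BL/6 strain, an adult anaemia model in which erythropoiesis expands in the spleen. WT and D3839 mice, which carry small deletions that remove the CTCF motifs at HS-38 and at HS-39, upstream of the enhancers, gave 3 biological replicates each, and the ages of the mice were not given in the sources used here. The library preparation kit also differed between WT and D3839, and in every comparison below the effect of the kit and that of the genotype cannot be told apart. The tables hold contacts and no RNA, so neither the erythroid identity of the cells nor the expression of Hba-x could be checked.

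In mice, ζ-globin is made in the primitive erythroid cells of the embryo, and Hba-x is silenced in definitive erythroid cells, which use Hba-1 and Hba-2 instead. The enhancers R1, R2, R3, Rm and R4 lie upstream of the whole cluster, so Hba-x is the first globin gene on the way from the enhancers to the adult genes.

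Hba-x runs from base 32176400 to base 32178116 on the plus strand of chromosome 11 and has 3 exons. Its start lies 25.4 kb from the R2 viewpoint and 49.5 kb from the Mpg viewpoint, 7.11 kb before the start of Hba-a1 and 20.1 kb before that of Hba-a2. NlaIII cuts at CATG, and the window holds 57 fragments. The 250 bases before the annotated start, chr11:32176150-32176399 on the plus strand of mm9, are shown because the cutting sites in them set where contacts at the promoter can be placed. The fragment from base 32178845 to base 32178962, which is intergenic and 2.50 kb downstream of the start, is shown because it collected the most reporter ends of the window from both viewpoints. Capitals mark CATG.
Hba-x promoter: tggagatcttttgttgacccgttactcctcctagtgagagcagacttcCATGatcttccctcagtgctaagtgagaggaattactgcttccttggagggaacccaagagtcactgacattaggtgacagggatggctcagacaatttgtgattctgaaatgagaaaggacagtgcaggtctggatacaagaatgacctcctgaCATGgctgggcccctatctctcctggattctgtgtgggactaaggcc
Downstream fragment: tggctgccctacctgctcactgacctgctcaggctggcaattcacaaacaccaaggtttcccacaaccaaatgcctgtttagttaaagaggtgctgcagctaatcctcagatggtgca

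The promoter stretch has 2 CATG sites, and of 32851 promoters in RefSeq (GRCm38.p6) 54.0% have at least 1 and 21.3% at least 2 in the same 250 bases. CATG reads the same on both strands. RefSeq places the start of Hba-x 200 bases further downstream than the mm9 annotation does. The 2 sites were counted before the mm9 start, so they are not the count for the RefSeq stretch of Hba-x.

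The R2 matrices held 8651 to 16115 contacts and the Mpg matrices 10237 to 18951, after the viewpoint bin and 1 bin of 1 kb on each side of it had been left out. A larger part of all chromosome 11 contacts fell in the 14 segments of the study's region in D3839 than in WT, at 64.7% ± 1.95 (SD, n = 3) against 47.1% ± 1.11 from R2 and 51.6% ± 2.24 against 37.0% ± 4.20 from Mpg. The Hba-x window took part in 9655 contacts from R2 and 5237 from Mpg on chromosome 11. A contact counts once at each of its 2 reporters, its ends, and a level is the percentage of the ends of a matrix. Because 1 read can give several contacts, limits that a count of 0 allows cover counting error only, and for 3 ends they range from 0.00792% to 0.0173% of a matrix.

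Contacts within the window were unevenly spread, and per 1 kb bin the mean over the replicates was highest at the annotated start of the gene. From R2, the 1 kb bin with the annotated start held 1.32%, 1.39% and 1.73% of the ends in WT replicates 1 to 3 and 1.27%, 1.57% and 1.80% in D3839. It ranked first among the 9 bins of the window by the mean of the 6 replicates, 1.51%. The second bin by that mean, the last of the window, held 1.18%, with 1.64% in WT replicate 2, which is above the start-site bin of 4 of the 6 replicates. The least contacted bins were the first 2 of the window, toward R4, at 0.369% and 0.382%.

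From Mpg, the start-site bin again ranked first, at 0.689% over the 6 replicates. It held 0.478%, 0.567% and 0.927% in WT and 0.607%, 0.846% and 0.712% in D3839, so the groups overlapped. The bin with the end of the gene followed with 0.472%, and in WT replicate 1 it was above the start-site bin (0.594% against 0.478%). The first bin of the window was the lowest with 0.145%. The start-site bin has 10 fragments, the most of the 9 bins. Divided by fragments, the bin with the end of Hba-x ranked first from both viewpoints, at 0.174% per fragment from R2 and 0.0787% from Mpg, and the start-site bin took rank 3 and rank 2.

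**Figure D1:**
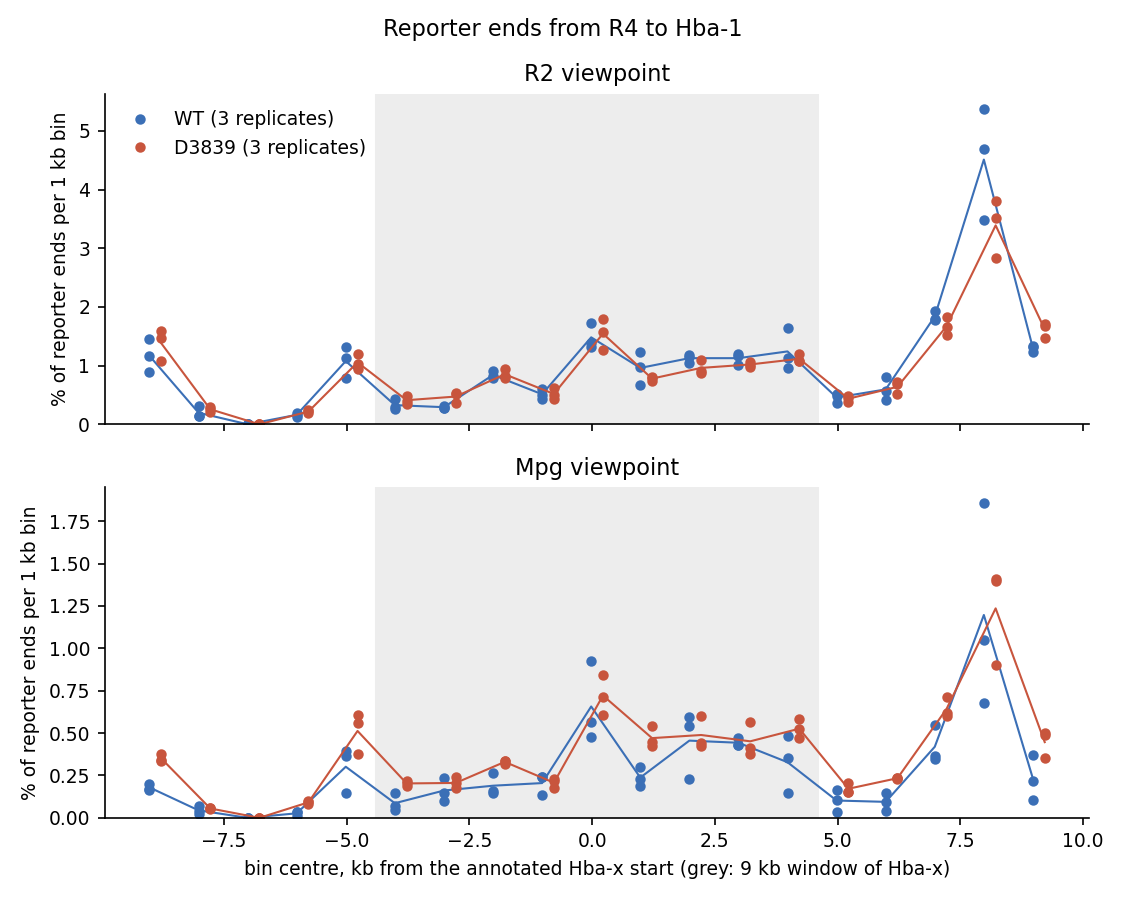
Percentage of reporter ends per 1 kb bin (y axis) against the distance of the bin centre from the annotated Hba-x start in kb (x axis), for the R2 and Mpg viewpoints, with 1 point per replicate and lines through the group means. Within the grey window the start-site bin has the highest mean of the 6 replicates from both viewpoints (1.51% and 0.689%), though not per fragment. The bins of Hba-1 to its right reach higher levels.

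Single fragments showed how fine this signal could be read. Of the 57 fragments, 52 held ends from each viewpoint, and the 5 without any were at most 14 bp long. From R2, the downstream fragment shown above held 158 ends in WT and 195 in D3839, 2.92% of the ends of the window, and from Mpg 107 and 129 ends, 3.80% of the window. In single replicates its rank ran from 2 to 14 from R2 and from 1 to 7 from Mpg. The 5 most contacted fragments together held 13.6% of the ends from R2 and 15.1% from Mpg, so no single fragment carried the signal of the window. The 64 bp fragment that holds the annotated start had 84 ends in WT and 141 in D3839 from R2, and ranked from 16 to 41 in single replicates. From Mpg it had 70 and 56 ends and ranked from 2 to 50. The RefSeq start falls in the 99 bp fragment from base 32176566. That fragment had 98 and 173 ends from R2 (rank 6 to 38) and 94 and 88 from Mpg (rank 1 to 35).

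The window was then set beside its neighbours, to see whether the gene stands out from the sequence around it and how its level compares with the adult genes. The 3 bins of 1 kb that hold Hba-x were compared within each replicate with the other 6 bins of the window and with the 5 kb windows of R4, Hba-1 and Hba-2. The last of the 3 gene bins, from base 32178001, is mostly intergenic, because the gene ends at base 32178116. This bin also holds the downstream fragment shown above, and the comparisons were not made without it. From R2 the gene bins held 1.14% of the ends per kb and their flanks 0.727%. The gene bins were higher in 6 of 6 replicates, with a ratio of 1.57 (two-sided exact sign-flip test, p = 0.0312, the smallest that 6 replicates allow, adjusted p = 0.0357 over 8 comparisons). On the log2 scale this was 0.65, and it was 0.32 per fragment, 0.33 without pairs within 1 bin and 0.35 with the 5 kb promoter window, and passed in each. The flanks differed by side. Single flank bins held from 0.369% to 0.847% toward R4 but 1.07% and 1.18% toward Hba-1, beside 1.51%, 0.869% and 1.04% in the gene bins. The excess thus lay over the side toward R4, and the sides were not tested apart. The R4 window held 0.551% per kb, and the gene bins were 2.07 times as high, again in 6 of 6 replicates with the same p. Hba-1 and Hba-2 stood higher, at 1.65% and 1.71% per kb, and the gene bins reached 0.694 and 0.671 of them, lower in 6 of 6 replicates each (adjusted p = 0.0357, exact sign-flip test). Against Hba-1 the log2 ratio of -0.53 moved to -1.26 per fragment and to -1.06 without pairs within 1 bin, and against Hba-2 that of -0.58 moved to -0.68 and -1.06.

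From Mpg the embryonic gene stood closer to the adult gene next to it. The gene bins held 0.434%, 0.327% and 0.589% of the ends per kb in WT and 0.583%, 0.579% and 0.518% in D3839. The Hba-1 window held 0.379%, 0.241% and 0.606% per kb in WT and 0.471%, 0.591% and 0.576% in D3839, so that each gene was the higher one in 3 of 6 replicates. Their ratio was 1.09, and the test of the difference did not pass (exact sign-flip test, adjusted p = 0.281). On the log2 scale this difference was 0.12 ± 0.23 (SD, n = 6). It turned to -0.51 when pairs within 1 bin were left out, to -0.42 without adjacent fragments and to -0.62 per fragment, with the gene bins below Hba-1 and the test passed in each (exact sign-flip test, adjusted p = 0.0312, 0.0312 and 0.0357). With each fragment pair counted once it was 0.20 and passed the other way, with the gene bins above Hba-1 (adjusted p = 0.0312, exact sign-flip test). Hba-2 held 0.696% per kb and remained above the gene bins in 6 of 6 replicates (ratio 0.723, adjusted p = 0.0357, exact sign-flip test). The gene bins were 1.81 times their flanks and 3.36 times the R4 window, higher in 6 of 6 replicates in both comparisons. Against the flanks, the log2 ratio of 0.86 fell to 0.53 per fragment, 0.52 without pairs within 1 bin and 0.40 with the promoter window, and passed in each. The flanks again differed by side. Single flank bins held from 0.145% to 0.260% toward R4 but 0.447% and 0.427% toward Hba-1, beside 0.689%, 0.354% and 0.472% in the gene bins. The sides were not tested apart.

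**Figure D2:**
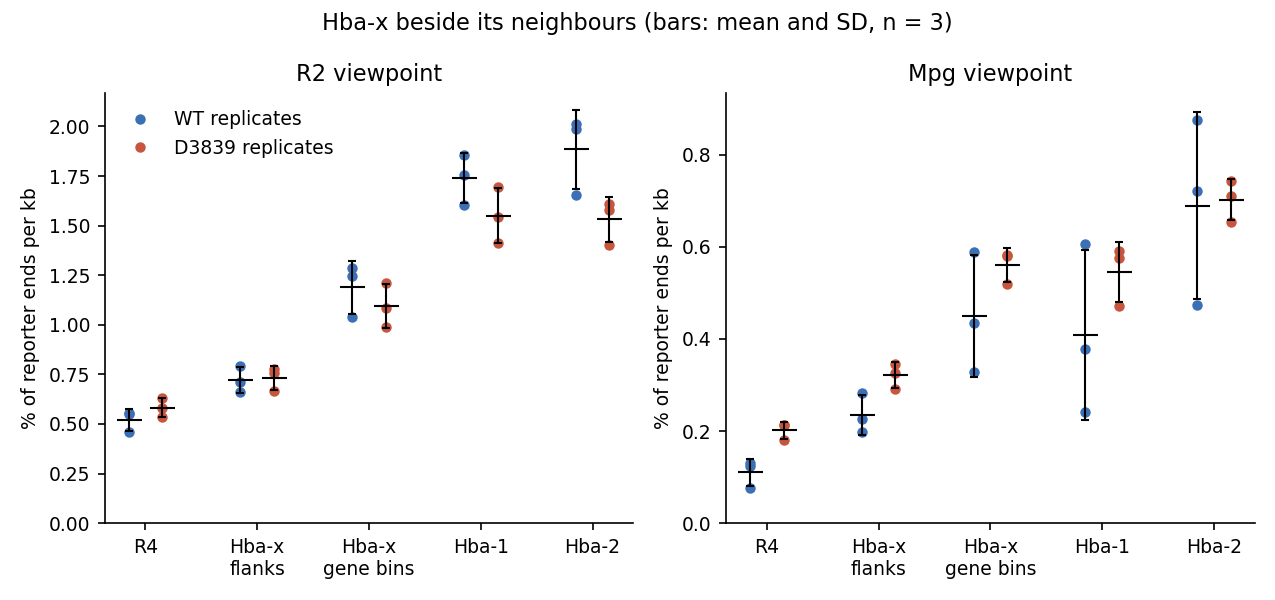
Percentage of reporter ends per kb (y axis) in the R4 window, the flanks and the gene bins of Hba-x and the Hba-1 and Hba-2 windows (x axis), with 1 point per replicate and the mean and SD of 3 replicates. From R2 the gene bins lie above the R4 window and below both adult windows, and from Mpg they overlap Hba-1.

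The unit mattered for R4. The R4 window has 13 fragments in 5 kb, the gene bins have 22 in 3 kb, and per fragment the order of the pair turned from R2 (log2 ratio -0.44, adjusted p = 0.0357 by the exact sign-flip test). From Mpg the ratio fell to 0.25 on the log2 scale per fragment and no longer passed (adjusted p = 0.219, exact sign-flip test). The Hba-1 and Hba-2 windows share near-identical sequence: 39.8% and 37.8% of their 32-base stretches occur again on chromosome 11, against 4.79% in the Hba-x window and 4.35% in the R4 window. How many adult reads were lost or misplaced for that reason was not tested.

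The other globin genes of the cluster were compared over their promoter bin with 2 bins on each side. From R2, Hba-x held 1.03%, 0.900% and 1.02% of the ends per kb in WT and 0.834%, 0.967% and 0.992% in D3839, with a mean of 0.958%. Hbq1b, a θ-like globin gene behind Hba-a1, held 1.89%, Hba-a2 1.71% and Hba-a1 1.65%, each above Hba-x in 6 of 6 replicates (adjusted p = 0.0371, exact sign-flip test over 19 promoter comparisons). Hbq1a, the θ-like gene behind Hba-a2, held 0.982% and did not differ beyond the spread (ratio to Hba-x 1.02, above it in 3 of 6 replicates, adjusted p = 0.875, exact sign-flip test). Nprl3, which hosts several of the enhancers in its introns, followed with 0.735% and was lower in 6 of 6 replicates. Hba-x was in place 5 of the 11 promoters of the region over all replicates and in WT, and in place 4 in D3839, before Hbq1a (0.931% against 0.878%). The windows of Hba-a1 and Hbq1b share 2 of their 5 bins, among them the highest bin of both, and those of Hba-a2 and Hbq1a share 1. Over the bins of its own, a setting chosen after seeing the data, Hbq1b held 1.34% per kb from R2 and was above Hba-x in 6 of 6 replicates, Hba-a2 held 1.98% and was above it in 6 of 6, Hba-a1 held 0.939% and was above it in 3 of 6, and Hbq1a held 1.07% and was above it in 4 of 6. The place of Hbq1b before the other globin promoters and the excess of Hba-a1 over Hba-x therefore rested on the shared bins. The highest shared bin holds the end of the Hba-a1 gene itself and no part of Hbq1b.

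From Mpg, Hba-x was in place 6 of 10 promoters over all replicates and in D3839, and in place 7 in WT, behind Snrnp25 (0.384% against 0.349%), with 0.317%, 0.276% and 0.454% of the ends per kb in WT and 0.460%, 0.450% and 0.422% in D3839. Its neighbours in the order were Hba-a1 at 0.477% (adjusted p = 0.105) and Snrnp25, a spliceosome gene, at 0.383% (adjusted p = 0.875), and neither differed beyond the spread by the exact sign-flip test. Hbq1a at 1.32%, Hba-a2 at 0.696% and Hbq1b at 0.682% were above Hba-x in 6 of 6 replicates. Over the bins of its own, Hbq1b held 0.618%, Hba-a2 0.782% and Hbq1a 1.56%, each above Hba-x in 6 of 6 replicates, while Hba-a1 held 0.277% and was above it in 0 of 6. By the mean absolute log2 difference over the 12 matrices, the promoters nearest to Hba-x in level were Hba-a1 (0.53) and Hba-a2 (0.82). This order pools the viewpoints: from R2 alone Hbq1a (0.12) and Nprl3 (0.39) were nearest, with Hba-a1 at 0.78 and Hba-a2 at 0.83, and from Mpg alone Hba-a1 (0.29) and Snrnp25 (0.31) were, with Hba-a2 at 0.81.

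The question between the genotypes was whether removal of the upstream CTCF sites changed the contacts of Hba-x. From R2, the window held 8.01%, 7.87% and 7.84% of the ends in WT and 6.94%, 7.91% and 8.17% in D3839. The D3839 replicates lay on both sides of the WT values, and the means of 7.91% ± 0.0914 (SD, n = 3) and 7.67% ± 0.645 did not differ beyond the spread (two-sided exact permutation test, p = 0.9, where 3 against 3 replicates allow no p below 0.1). As a percentage of all chromosome 11 ends the window went the other way, from 3.73% ± 0.0923 in WT to 4.96% ± 0.297 in D3839, with all 3 D3839 replicates above WT (exact permutation test, p = 0.1). With the ends from R4 to the Hbq-2 segment as the total, the share was 19.2% in WT and 21.0% in D3839 (exact permutation test, p = 0.3). The direction from R2 therefore depended on the total.

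From Mpg, the window held 2.65%, 2.17% and 3.47% in WT and 3.70%, 3.48% and 3.63% in D3839. Each D3839 replicate was higher than each WT replicate, though the highest WT replicate lay just below the lowest D3839 one. The means were 2.76% ± 0.656 (SD, n = 3) and 3.61% ± 0.111, a difference of 0.842 percentage points (exact permutation test, p = 0.1, the smallest possible). The groups were also apart with all chromosome 11 ends as the total (1.04% and 1.86%) and with R4 to Hbq-2 as the total (13.9% and 18.1%). They overlapped with each fragment pair counted once, at 3.14%, 3.15% and 4.61% in WT and 4.29%, 4.10% and 4.62% in D3839 (exact permutation test, p = 0.3), and per restriction fragment, where WT replicate 3 (3.27%) lay above D3839 replicate 2 (3.14%, exact permutation test, p = 0.2). For the 3 gene bins alone the groups overlapped, at 1.35% ± 0.395 in WT and 1.68% ± 0.109 in D3839 (exact permutation test, p = 0.4).

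**Figure D3:**
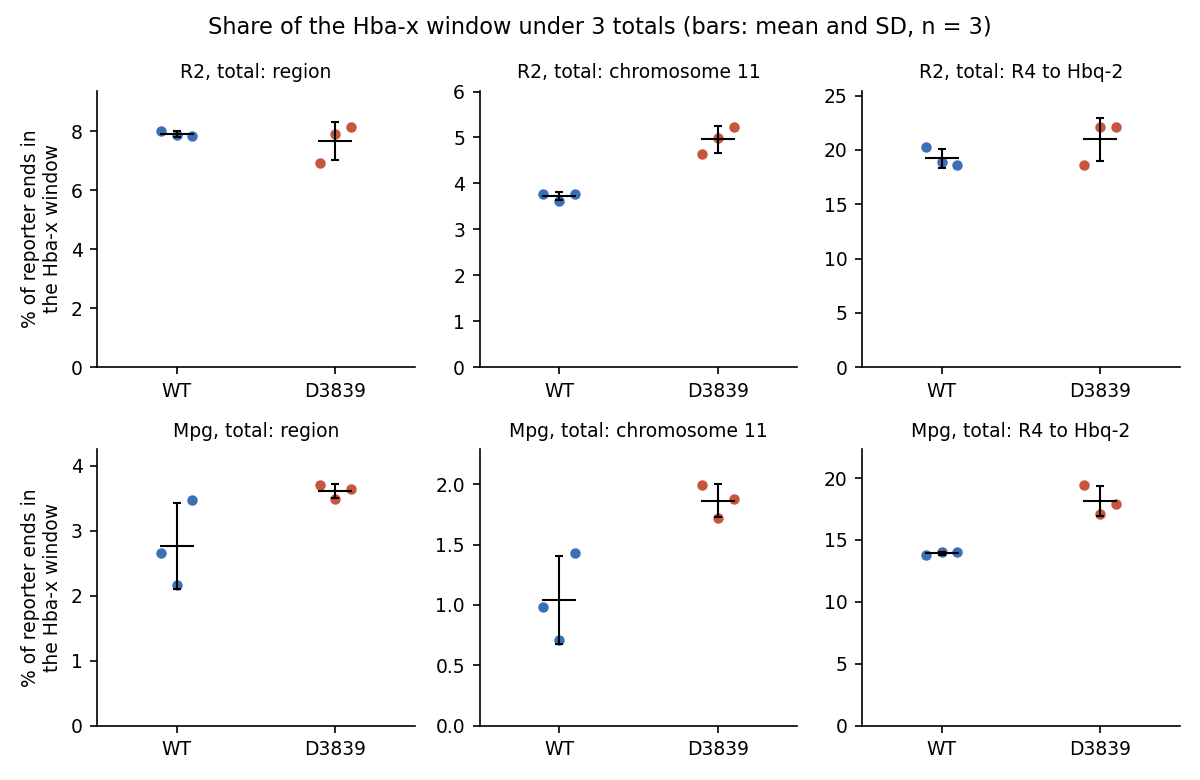
Percentage of reporter ends in the 9 kb Hba-x window (y axis) in WT and D3839 replicates, by viewpoint (rows) and by the total used (columns), with the mean and SD of 3 replicates. From R2 the groups overlap with the region as the total and separate with chromosome 11 as the total, and from Mpg D3839 lies above WT under each of the 3 totals.

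In 3 kb bins, 1 of the 3 bins of the window passed the edgeR test from Mpg. The bin centred at -2.9 kb from the start of Hba-x held 0.393%, 0.371% and 0.546% of the ends in WT and 0.728%, 0.722% and 0.768% in D3839, without overlap. It rose 1.68-fold (log2 0.75 ± 0.20, SE, edgeR adjusted p = 0.0121). The bin with the start had a log2 difference of 0.34 ± 0.22 (SE, edgeR adjusted p = 0.182) and the bin behind it one of 0.25 ± 0.23 (adjusted p = 0.378, edgeR). So 1 of the 3 bins rose and 0 fell, where 26.7% of the 60 bins tested rose and 28.3% fell. A count of 1 in 3 is near that background. Without WT replicate 3, 2 of the 3 bins rose, where 30% of the 60 bins rose and 41.7% fell. The 3 bins were not tested against each other. In 1 kb bins, 2 of 9 rose from Mpg and 0 fell, where 10.2% of 176 bins rose and 9.66% fell. They were the first bin of the window (log2 1.24, edgeR adjusted p = 0.0444) and the bin from base 32177001, which lies inside the gene. The latter held 0.229%, 0.186% and 0.298% in WT and 0.541%, 0.449% and 0.421% in D3839, without overlap (log2 0.97, edgeR adjusted p = 0.0258).

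From R2, 0 of the 3 bins passed in either direction by edgeR and 0 had an unadjusted p under 0.05, where 8.33% of the 60 bins rose and 0% fell. By DESeq2 0 of the 3 passed as well, where of the 43 bins with an adjusted p 16.3% rose and 6.98% fell. Their log2 differences were 0.25, -0.06 and -0.17 in the order from R4 to Hba-1 (edgeR adjusted p from 0.304 to 0.783). Scaled to all chromosome 11 ends, all 3 were higher in D3839, with log2 differences of 0.71, 0.40 and 0.29 and edgeR adjusted p from 0.00219 to 0.0386, where 38.3% of the 60 bins rose and 0% fell. That scaling moved the median of all bins from -0.06 to 0.40, and relative to that median the first and last of the 3 bins stood at 0.31 and -0.11 under either scaling. The difference of the D3839 effect between the viewpoints was 0.53, 0.44 and 0.46 on the log2 scale, larger from Mpg in each bin, and passed in 0 of 3 bins (edgeR adjusted p from 0.211 to 0.213, 0 at an unadjusted p under 0.05), where 13.3% of 60 bins passed. Without WT replicate 3, 2 of the 3 bins passed, where 38.3% of 60 bins did.

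The window was more strongly represented from R2 than from Mpg in all replicates. The ratio of the share from R2 to that from Mpg in the same replicate was 2.49, and R2 was higher in 6 of 6 replicates (two-sided exact sign-flip test, p = 0.0312). It was 2.92 in WT and 2.12 in D3839, a difference that did not pass (log2 -0.46, exact permutation test, p = 0.2). The viewpoints differ in their distance to Hba-x, and each share falls with the ends that lie next to its own viewpoint. With R4 to Hbq-2 as the total, the ratio was 1.26 and R2 was higher in 5 of 6 replicates (exact sign-flip test, p = 0.0625).

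Many contacts of Hba-x were local. Of the contacts of the window that stayed in the matrix, both ends lay in the window in 48.3% ± 5.10 (SD, n = 3) in WT and 45.3% ± 5.79 in D3839 from R2, and in 49.9% ± 4.05 and 42.2% ± 6.58 from Mpg. Of these local contacts, 61.8% and 56.7% joined adjacent fragments from R2 and 74.2% and 65.0% from Mpg. Adjacent fragments may be left uncut or rejoined in the procedure, and the share of such products was not tested. Partners of the window are therefore described from the contacts that left it. These leaving contacts still include adjacent fragments across the edges of the window. At the edge toward Hba-1 that pair had 104 contacts from R2 and 51 from Mpg, and at the edge toward R4 23 and 21.

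From R2, an enhancer segment was the leading partner of Hba-x. The 13 kb segment from R3 to Rm took 17.1% ± 1.54 (SD, n = 3) of the leaving contacts in WT and 19.4% ± 0.144 in D3839, the largest share of any segment. The segment around R2 itself took 9.53% and 12.6%, Hba-1 8.66% and 10.6%, R1 7.15% and 8.58% and R4 6.22% and 8.04%. Per kb the order was different: R2 was first with 3.17% in WT, then Hba-1 with 1.73%, R1 with 1.43%, R3 to Rm with 1.32% and R4 with 1.24%. In D3839 it was R2 with 4.19%, Hba-1 with 2.12%, R1 with 1.72%, R4 with 1.61% and R3 to Rm with 1.49%. The shares of R3 to Rm, of Mpg (1.14% and 3.89%) and of Snrnp25 with Rhbdf1 (2.25% and 4.45%) were higher in all 3 D3839 replicates than in WT (exact permutation test, p = 0.1 for each), on a total whose part elsewhere on the chromosome was lower. With all contacts of the window as the total, R3 to Rm took 10.4% and 11.4% and overlapped (exact permutation test, p = 0.4). R1 (4.31% and 5.02%), Mpg (0.682% and 2.25%) and Snrnp25 with Rhbdf1 (1.36% and 2.60%) did not overlap (exact permutation test, p = 0.1 for each). As shares of the matrix, which is another total than the 2 above, 15.2% of all segment pairs lay above WT in all 3 D3839 replicates. On that total 2 of the 14 pairs with Hba-x did. Partners elsewhere on chromosome 11 took 29.8% ± 2.97 in WT and 16.1% ± 1.23 in D3839, without overlap (exact permutation test, p = 0.1). This moved with the series as a whole, where the share of all R2 contacts inside the region went from 47.1% to 64.7%.

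From Mpg, the leading partner of Hba-x was the Mpg segment, with 13.3% ± 2.10 (SD, n = 3) of the leaving contacts in WT and 18.5% ± 4.45 in D3839. The segment of Snrnp25 and Rhbdf1, 22 kb wide, followed with 10.1% and 11.9%. Taken per kb, the Mpg segment, which holds the viewpoint, was still first with 1.48% in WT and 2.06% in D3839. The 6 kb segment from HS-38/-39 to R1 (7.27% and 7.33% of the leaving contacts) came next with 1.21% and 1.22%. Snrnp25 and Rhbdf1 held 0.461% and 0.542% per kb, below R4 (0.843% and 0.906%) and Hba-1 (0.773% and 1.21%). The enhancer segments took smaller shares than from R2, R3 to Rm 2.96% and 6.23% and R1 2.22% and 4.06%. The share of R3 to Rm and that of Hba-1 (3.86% and 6.05%) were higher in all 3 D3839 replicates than in WT. Those of the downstream flank (7.58% and 4.27%) and of the rest of chromosome 11 (36.1% and 24.1%) were lower in all 3 (exact permutation test, p = 0.1 for each of these shares). The Hba-1 contacts were 9, 11 and 25 in WT and 47, 47 and 34 in D3839. Of these, 4, 2 and 3 in WT and 15, 16 and 11 in D3839 joined the adjacent fragments at that edge of the window. The separation for Hba-1 includes this pair, and the shares without it were not tested. With all contacts of the window as the total, the groups were still apart for R3 to Rm (1.77% and 3.97%) and the downstream flank (4.61% and 2.72%). They were also apart for Hba-1 with the adjacent pair included (2.35% and 3.85%) and for the Mpg segment (8.16% and 11.7%, exact permutation test, p = 0.1). The rest of chromosome 11 overlapped (exact permutation test, p = 0.2). As shares of the matrix, again another total, 33.3% of all segment pairs from Mpg lay above WT in all 3 D3839 replicates and 7.62% lay below. On that total 4 of the 14 pairs with Hba-x lay above and 0 below.

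**Figure D4:**
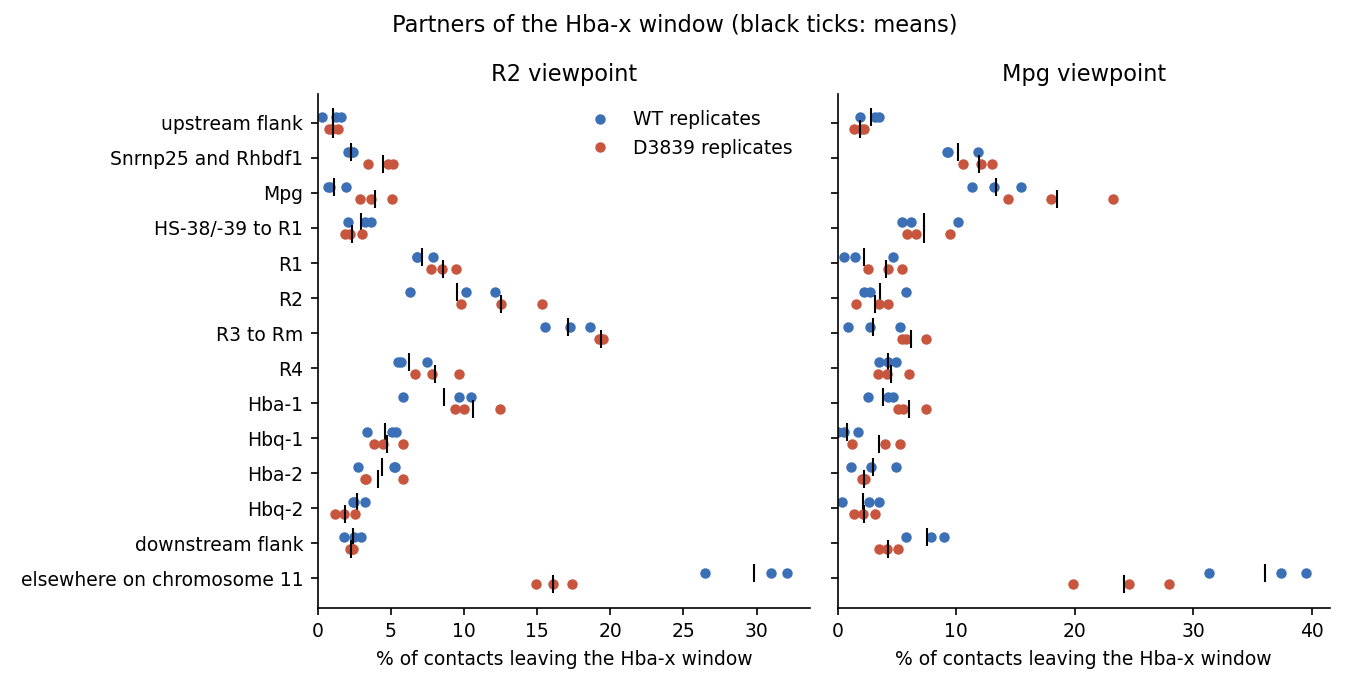
Percentage of the contacts leaving the Hba-x window (x axis) that went to each segment or to the rest of chromosome 11 (y axis), by viewpoint, with 1 point per replicate and black ticks at the group means. From R2 the segment from R3 to Rm takes the largest share inside the region, from Mpg the Mpg segment does, and partners elsewhere on the chromosome take less in D3839 from both viewpoints.

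Contacts per pair of segments were then tested between the genotypes with edgeR over all 105 pairs of a viewpoint. From R2, 1 of the 14 pairs with Hba-x rose and 0 fell, 7.14% and 0%, where 10.5% of all pairs rose and 4.76% fell. The pair was Hba-x with Mpg, with 14, 5 and 8 contacts in WT and 37, 35 and 51 in D3839, or 0.147%, 0.0578% and 0.0617% of the matrix against 0.230%, 0.239% and 0.317%. The groups did not overlap, and the pair rose 2.96-fold (log2 1.57 ± 0.47, SE, edgeR adjusted p = 0.0118). Hba-x with the segment of Snrnp25 and Rhbdf1 was also above WT in all 3 D3839 replicates but did not pass (0.178% and 0.300%, log2 0.77 ± 0.40, SE, edgeR adjusted p = 0.190). D3839 shares lay above all WT shares in 2 of the 14 pairs and below them in 1, where 15.2% and 13.3% of the 105 pairs did so. A count of 1 in 14 is not above that background. The pair with Mpg no longer passed without D3839 replicate 1, D3839 replicate 3 or WT replicate 3, with log2 differences of 1.65, 1.40 and 1.33 (edgeR adjusted p = 0.0598, 0.107 and 0.0778), nor with the gene bins in place of the window (log2 2.33, edgeR adjusted p = 0.0579).

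The pairs of Hba-x with the enhancers and the adult genes from R2 had log2 differences near 0: 0.07 ± 0.30 (SE) with R1, 0.24 ± 0.28 with R2, -0.01 ± 0.23 with R3 to Rm, 0.16 ± 0.31 with R4, 0.10 ± 0.29 with Hba-1 and -0.23 ± 0.36 with Hba-2. Their edgeR adjusted p ranged from 0.709 to 0.970. Hba-x with Hba-1, the pair of the embryonic and the adjacent adult gene, held 0.680% ± 0.201 (SD, n = 3) of the matrix in WT and 0.729% ± 0.127 in D3839. The lowest log2 difference of the 14 was that of Hba-x with the Hbq-2 segment, 0.210% in WT and 0.123% in D3839 (log2 -0.77 ± 0.46, SE, edgeR adjusted p = 0.287).

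From Mpg, 4 of the 14 pairs with Hba-x rose and 0 fell, 28.6% and 0%, where 23.8% of the 105 pairs rose and 6.67% fell. Hba-x with the Mpg segment had 39, 40 and 70 contacts in WT and 146, 122 and 119 in D3839 and rose 1.85-fold (log2 0.89 ± 0.32, SE, edgeR adjusted p = 0.0298). Hba-x with R3 to Rm had 3, 7 and 28 contacts in WT and 47, 49 and 36 in D3839 and rose 2.58-fold (adjusted p = 0.0207, edgeR). In both pairs the percentages of the matrix did not overlap between the groups.

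In the other 2 pairs they did. Hba-x with R1 had 5, 12 and 3 contacts in WT and 16, 46 and 28 in D3839, and as a percentage of the matrix D3839 replicate 1 (0.0844%) lay below WT replicate 2 (0.117%), while the fit gave a rise of 2.98-fold (edgeR adjusted p = 0.0234). Hba-x with the Hbq-1 segment, which holds the θ-like gene Hbq1b, had 2, 0 and 9 contacts in WT and 25, 45 and 8 in D3839, with a fitted rise of 5.14-fold (edgeR adjusted p = 0.00309). The count of 0 among 10237 contacts allows a share of up to 0.0293%, and D3839 replicate 3 (0.0444%) lay below WT replicate 3 (0.0552%). Hba-x with Hba-1 did not pass, at 9, 11 and 25 contacts in WT and 47, 47 and 34 in D3839 (log2 1.04 ± 0.46, SE, edgeR adjusted p = 0.0727). Its percentages of the matrix did not overlap, and it includes the adjacent fragments at the edge of the window. The log2 differences with R2, R4 and Hba-2 were 0.30, 0.49 and -0.01 (edgeR adjusted p from 0.439 to 0.986). With a replicate left out, the log2 difference of Hba-x with Mpg (0.89) ranged from 0.77 to 1.00 and passed only without WT replicate 2 or WT replicate 3, with an edgeR adjusted p from 0.0552 to 0.125 in the other 4 fits. That of the Hbq-1 pair (2.36) ranged from 1.70 without D3839 replicate 2, where it did not pass, to 3.90 without WT replicate 3. That of R1 (1.58) ranged from 1.09 without WT replicate 3 to 2.51 without WT replicate 2, and that of R3 to Rm (1.37) from 0.94 without WT replicate 1 to 2.40 without WT replicate 3, where the lower value of each did not pass.

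These calls from Mpg depended on the scaling. With the matrix totals the median log2 difference of all 105 pairs was 0.52 and that of the 14 pairs with Hba-x 0.48. TMM normalization brought these medians to 0.02 and 0.01 and left 0 of the 14 pairs past the threshold. By DESeq2 0 passed as well. By either tool, 1 pair was higher and 1 lower at an unadjusted p under 0.05. The log2 difference of the Hbq-1 pair was 1.84 by TMM (edgeR adjusted p = 0.0539) and 1.96 by DESeq2 (DESeq2 adjusted p = 0.0805). Those of R1, R3 to Rm and Mpg were 1.08, 0.87 and 0.40 by TMM and 0.97, 0.92 and 0.41 by DESeq2. Over all 105 pairs the split of higher to lower calls went from 25 and 7 to 5 and 16 under TMM and to 44 and 1 with all chromosome 11 contacts as the library size. With the gene bins in place of the window, 1 pair with Hba-x passed, the one with Hbq-1. Without D3839 replicate 2, 0 of the 14 pairs passed (3 at an unadjusted p under 0.05 by edgeR), and without WT replicate 1 only the pair with Hbq-1 did. The count was 2 without D3839 replicate 1. D3839 shares lay above all WT shares in 4 of the 14 pairs and below them in 0, where 33.3% and 7.62% of the 105 pairs did so.

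**Figure D5:**
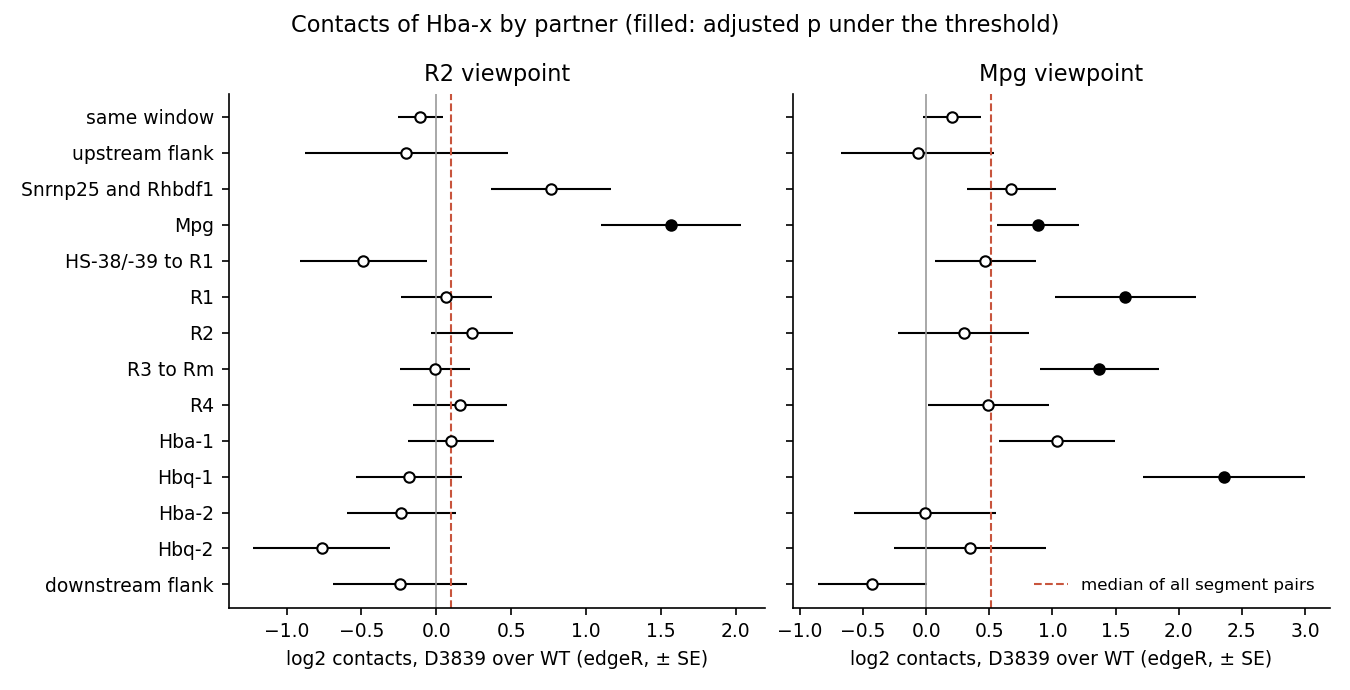
log2 difference of contacts between D3839 and WT with its SE (x axis, edgeR) for Hba-x with itself and with each segment (y axis), by viewpoint, where filled points have an adjusted p under 0.05. From R2 only the pair with Mpg passes, and from Mpg the pairs with Mpg, R1, R3 to Rm and Hbq-1 pass, all to the right of the dashed median of all pairs at 0.52.

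In the finer view of 3 kb bin pairs, 0 of 87 pairs that touched the window passed from R2 by edgeR, with 6 at an unadjusted p under 0.05, and 0 by DESeq2, where 0% of 601 pairs passed. From Mpg 0 of 82 passed by edgeR, with 6 at an unadjusted p under 0.05, and 0 by DESeq2, where 1.65% of 848 pairs passed. The median log2 difference from Mpg was 0.62 over the pairs of the window and 0.25 over all pairs, and from R2 0.12 and 0.18. The smallest p among the higher pairs from Mpg belonged to the last 3 kb of the window with the next 3 kb toward Hba-1, with 5, 4 and 4 contacts in WT and 24, 31 and 23 in D3839 (edgeR adjusted p = 0.109). Among the lower pairs from Mpg it belonged to the last 3 kb of the window with the bin centred at -23.9 kb (9, 2 and 3 contacts in WT and 2, 2 and 1 in D3839, log2 -1.93, edgeR adjusted p = 0.508). From Mpg, 2 pairs of the window passed without WT replicate 3 and 1 passed without WT replicate 2, where 2.82% and 1.51% of all pairs did. From R2 the smallest p among the higher pairs joined the start-site bin of Hba-x with the 3 kb bin centred at -56.9 kb, which lies in Rhbdf1, with 1, 0 and 0 contacts in WT and 14, 9 and 4 in D3839 (edgeR adjusted p = 0.282). Among the lower pairs it joined the last 3 kb of the window with a bin centred at -59.9 kb (2, 9 and 2 contacts in WT and 1, 0 and 0 in D3839, edgeR adjusted p = 0.326). That bin adjoins the former one and lies in Rhbdf1 as well.

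R1 was the enhancer for which separation was taken into account. Contacts between the Hba-x window and R1 from R2 were 3.77, 3.44 and 4.14 times the mean of bin pairs at an equal separation elsewhere in the matrix in WT and 3.45, 3.44 and 3.77 times in D3839, above 1 in 6 of 6 replicates (exact sign-flip test, p = 0.0312). The groups overlapped at 3.79 ± 0.351 (SD, n = 3) and 3.55 ± 0.190 (exact permutation test, p = 0.4). Hba-1 with R1 reached 8.96 ± 1.55 (SD, n = 6) and Hba-2 with R1 18.9 ± 4.23, and Hba-x was lower than each in 6 of 6 replicates (against Hba-1 log2 -1.28 ± 0.29, SD, exact sign-flip test, p = 0.0312). R4 with R1, at 3.50 ± 0.892, did not differ from Hba-x beyond the spread (exact sign-flip test, p = 0.625). When the product of the bin totals replaced the separation as the expectation, Hba-x with R1 fell below it from R2 (log2 -1.28 against 1.87), and its log2 difference from Hba-1 was -0.39. Corrected for restriction fragments that difference was -1.99, and both had the same exact sign-flip p.

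From Mpg, Hba-x with R1 stood at 0.478, 1.37 and 0.245 times the expectation in WT and at 0.782, 2.05 and 1.60 times in D3839, above 1 in 3 of 6 replicates (exact sign-flip test, p = 0.719). Hba-1 with R1 stood at 1.10 ± 0.408 (SD, n = 6), and the difference of the pair was not beyond the spread (log2 -0.27 ± 0.97, exact sign-flip test, p = 0.531). Hba-2 with R1 stood at 2.54 ± 1.10 (SD, n = 6). Hba-x was above it in 1 of 6 replicates (log2 -1.39 ± 0.98, SD, exact sign-flip test, p = 0.0625). Only 20 WT and 90 D3839 contacts joined Hba-x and R1 from this viewpoint, which limits what can be read from them.

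Single fragment pairs were too sparse to name a contact point. From R2, 2473 distinct pairs joined the window to another place in the matrix in 4388 contacts, and 87.6% of them were seen in 1 of the 6 replicates only. From Mpg there were 1401 pairs in 2340 contacts, 96.2% of them seen in 1 replicate. The pair with the most contacts from both viewpoints joined the last fragment of the window to the fragment that adjoins it toward Hba-1, with 8, 12 and 15 contacts in WT and 28, 11 and 30 in D3839 from R2 and with 51 in all from Mpg. The leading distant pair from R2 joined a 71 bp fragment of the Hba-x gene body to a fragment of the R2 segment, 114 bp long, with 10 contacts that all came from D3839 replicate 2.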

How the data were processed

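The authors deposited 12 tables of Tri-C contact counts, 1 for each of 3 WT and 3 D3839 replicates from the R2 and Mpg viewpoints, in which a count is the number of contacts between a pair of NlaIII fragments, not normalized. Per the study's methods, CCseqBasic analysed the reads, fragments targeted by other capture oligonucleotides, spurious ligations and PCR duplicates were removed, and reads with at least 2 reporters were kept. The submitters' processing notes name Trim Galore, Bowtie and mm9, with no versions used here. The preparation kit differed between WT and D3839. No per-sample column was left unused.

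The members and gene lists were chosen with earlier results of these data known. Each contact was split into 2 reporter ends, which are not independent of each other, placed by fragment midpoint in 1 kb bins from base 32070001 to base 32250000 of chromosome 11, leaving out the viewpoint bin and its neighbours. Shares were tested by two-sided exact permutation (3 against 3) or exact sign-flip tests over the 6 replicates, with Benjamini-Hochberg adjustment. Counts per 3 kb bin, segment pair and 3 kb bin pair were tested with edgeR's quasi-likelihood test over the whole table (R 4.3.3, edgeR 4.0.16), with the matrix total as library size, a threshold of 0.05 on the adjusted p and DESeq2 1.42.0 as an alternative. The difference of the D3839 effect between viewpoints was fitted in both viewpoints together with the replicate as a block. The fits were tested on simulated data. Python 3.11.15, numpy 2.4.6, pandas 2.3.3, scipy 1.17.1 and matplotlib 3.10.9 were used. Alternatives were TMM, all chromosome 11 contacts as total, other bins and filters, pairs counted once, adjacent or same-bin pairs left out, per-fragment shares, the replicate number as a block and each replicate left out. The total from R4 to Hbq-2, the fit across viewpoints and promoter windows without shared bins were chosen after seeing the data.

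Named were Hba-x, the other genes of the α-globin cluster, the 2 promoters nearest to it in level, and segment or bin pairs past the threshold or else with the smallest p in each direction. The replicate numbers were not treated as pairs in the main tests. Same-numbered samples correlated by -0.0254 to 0.0669 from R2 and by -0.0270 to 0.0533 from Mpg. Different-numbered samples correlated by -0.0958 to 0.0788 from R2 and by -0.0545 to 0.0538 from Mpg. So few values cannot exclude a pairing.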

Additional observations from a re-analysis of the deposited data

How the results depend on the processing

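From R2, the difference in the window share (-0.235 percentage points) turned to 1.23 with chromosome 11 as the total and to 1.73 with R4 to Hbq-2 as the total, and ranged from -0.482 to 0.129 when replicates were left out; from Mpg (0.842) it ranged from 0.544 to 1.19. The log2 ratios of the gene bins lost their call within 1 genotype, where 3 replicates allow no smaller exact p than 0.25: for WT and D3839 in turn they were 0.72 and 0.58 against the flanks, 1.19 and 0.91 against R4, -0.55 and -0.50 against Hba-1 and -0.67 and -0.49 against Hba-2 from R2, and 0.91 and 0.81, 2.02 and 1.47, and -0.61 and -0.33 against flanks, R4 and Hba-2 from Mpg. Per fragment, R4 gave -0.44 from R2 and 0.25 from Mpg, and Hba-1 gave -0.62 from Mpg. Against Hba-1 from Mpg, the ratio was -0.42 without adjacent fragments, -0.51 without same-bin pairs and 0.20 with pairs counted once, and it passed in these and per fragment, and was -0.23 with the promoter window. With a replicate left out, which allows no exact p below 0.0625, they ranged from 0.59 to 0.70 (flanks), 0.96 to 1.11 (R4), -0.56 to -0.48 (Hba-1) and -0.62 to -0.50 (Hba-2) from R2, and from 0.82 to 0.91, 1.65 to 1.84, 0.06 to 0.17 and -0.53 to -0.42 from Mpg.

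For R1, the product of bin totals gave -1.28 from R2 and -1.18 from Mpg, the promoter window gave 0.076 from Mpg, and Hba-x over Hba-1 from Mpg was 0.14 and 0.015 under these settings and -0.82 corrected for fragments. With a replicate left out, R1 ranged from 1.84 to 1.89 from R2 and from -0.46 to 0.15 from Mpg, and Hba-x over Hba-1 from -1.36 to -1.18 and from -0.49 to 0.022. The log2 ratio of R2 over Mpg was 1.54 in WT, 1.09 in D3839, 0.34 with R4 to Hbq-2 as total and 1.21 to 1.40 with a replicate left out, and its genotype difference ranged from -0.64 to -0.30.

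The 3 kb bins called were 2 from Mpg and 3 from R2 with chromosome 11 as library size, and 2 of 9 from Mpg in 1 kb bins. The bins at 0.1 and 3.1 kb from R2 then turned to 0.40 and 0.29, and the former ranged from -0.13 to 0.023 with a replicate left out. Segment pairs called from Mpg fell from 4 to 0 by DESeq2 and TMM, to 1 with gene bins and to 1 with the replicate block, and from R2 went from 1 to 0 with gene bins and to 3 with chromosome 11. With a replicate left out, the counts from Mpg and R2 ranged from 1 to 2 and from 0 to 0 for bins, from 0 to 4 and from 0 to 1 for segment pairs, from 0 to 2 and from 0 to 0 for bin pairs, and from 0 to 2 for the difference between viewpoints. Over all bins from R2, calls went from 5 to 10 by DESeq2, 11 without same-bin pairs, 3 with the replicate block and 23 with chromosome 11. Over all segment pairs from Mpg they went from 32 to 17 with the block, 20 by DESeq2 and 21 by TMM, and over all bin pairs from 14 to 7 without the count filter and 9 with the block. The block changed no other call count of the window. The cause was not tested. Whether depth limited the calls of single bin pairs was not tested either.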
